A study of Caenorhabditis elegans with 2 samples.

Results

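MicroRNA (miRNA) genes of Caenorhabditis elegans were examined for binding by ZFP-3, a zinc finger protein, in whole L4 larvae. The members were all 261 genes that the Ensembl annotation of the WBcel235 assembly classes as miRNA, out of 46890 genes on the nuclear chromosomes. Chromatin immunoprecipitation followed by sequencing (ChIP-seq) finds the DNA that a protein occupies, and the call of a strong site is a peak whose highest point is its summit. A miRNA gene was called bound where its window, the 1000 bp before the annotated 5′ end and the 200 bp after it, held a summit of the authors' conservative peak list. The strain was RW12271, in which CRISPR editing had added TY1, EGFP and 3xFLAG to zfp-3 on the X chromosome. Larvae aged 48 h, synchronized by bleaching and L1 starvation, gave 2 biological replicates of 1 group. An antibody against GFP was used on chromatin sonicated to 200 to 800 bp. The conservative list, for which both libraries were used, had 2010 peaks, the list of replicate 1 alone 931, that of replicate 2 alone 933, and a further list of the series 1458. All these lists passed a limit on the irreproducible discovery rate (IDR), a measure of how far peak ranks repeat. Longer ranked lists without that limit held 43564 peaks for replicate 1 and 43966 for replicate 2. Read depth is unknown from peak lists, the possible control experiment named in the labels was not analysed here, and the lists hold no expression values with which to check the stage.

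A miRNA gene is transcribed as a longer primary transcript, from which the nuclear enzyme Drosha cuts a hairpin and Dicer then cuts a short duplex. One strand of the duplex is loaded into an Argonaute protein and guides it to messenger RNAs, mainly by pairing of its seed, the bases 2 to 8 from the 5′ end. The first miRNAs, lin-4 and let-7, were found in C. elegans as regulators of developmental timing. For nearly all miRNA genes the annotated 5′ end is that of the hairpin and not of the primary transcript, so distances below are from the hairpin. They are given as offsets, negative upstream and positive downstream in the direction of transcription.

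Mature sequences of bound miRNAs with a shared seed are shown with some of their relatives, because they tell which bound genes belong together. They were read from the RefSeq WBcel235 genome at the positions of its annotation, with the seed in capitals. Across 260 of the members, 458 mature sequences were annotated. The seed AUGACAC was shared by 5 genes, of which mir-64, mir-65, mir-66 and mir-229 were bound and mir-63 was not.
mir-229: aAUGACACugguuaucuuuuccaucg
mir-64: uAUGACACugaagcguuaccgaa
mir-66: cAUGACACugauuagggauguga
mir-63: uAUGACACugaagcgaguuggaaa
The 4 bound genes lie side by side and carry this seed on the 5′ arm of the hairpin, whereas mir-63 lies on the X chromosome and carries it on the 3′ arm. The seed ACCCGUA was shared by 6 genes, with mir-51 and mir-52 bound.
mir-51: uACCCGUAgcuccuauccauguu
mir-52: cACCCGUAcauauguuuccgugcu
mir-53: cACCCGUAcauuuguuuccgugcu
mir-54: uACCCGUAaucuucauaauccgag
mir-55: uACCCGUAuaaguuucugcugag
mir-56: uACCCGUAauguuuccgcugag
In this family the seed lies on the 5′ arm of mir-51, mir-52 and mir-53 and on the 3′ arm of mir-54, mir-55 and mir-56. Seed GAGAUCA was shared by 6 genes, among which only mir-80 was bound, and mir-81 and mir-82 are shown as unbound relatives.
mir-80: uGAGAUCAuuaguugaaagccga
mir-81: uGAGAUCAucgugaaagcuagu
mir-82: uGAGAUCAucgugaaagccagu
Seed GAGGUAG, that of let-7, was shared by 5 genes, among which only mir-48 was bound.
mir-48: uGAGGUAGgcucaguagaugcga
mir-241: uGAGGUAGgugcgagaaauga
mir-84: uGAGGUAGuauguaauauuguaga
let-7: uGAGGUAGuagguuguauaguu
The seed UUGUACU was shared by mir-238, which was bound, and by mir-239a and mir-239b, which were not.
mir-238: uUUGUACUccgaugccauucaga
mir-239a: uUUGUACUacacauagguacugg
mir-239b: uUUGUACUacacaaaaguacug
The seed GUCAUGG was shared by mir-47, which was bound, and mir-46, which was not.
mir-47: uGUCAUGGaggcgcucucuuca
mir-46: uGUCAUGGagucgcucucuuca
In all, 46 seeds were shared by more than 1 gene, 10 of these had a bound member, and 12 of the bound genes carried a shared seed.

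The DNA at the summits of 4 bound loci is given next, since these loci show strong peaks, peaks within a hairpin and a cluster whose genes share a peak. Each window is 101 bases of the RefSeq WBcel235 genome centred on the summit, written 5′ to 3′ on the strand of the hairpin. The summit of mir-80, at chrIII:8865500-8865600 on the minus strand, is shown with CTCCGCCC and the reverse complement of GAGAGA in capitals.
mir-80: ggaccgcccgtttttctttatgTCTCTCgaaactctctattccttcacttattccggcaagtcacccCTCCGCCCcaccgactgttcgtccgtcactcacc
The upstream summit of mir-52, at chrIV:14033283-14033383 on the plus strand, is shown with the reverse complement of GAGAGA in capitals.
mir-52: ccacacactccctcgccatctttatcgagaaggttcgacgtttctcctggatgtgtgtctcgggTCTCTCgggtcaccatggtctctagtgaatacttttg
The other summit of mir-52, at chrIV:14033993-14034093 on the plus strand, lay in the hairpin itself, and its capitals mark both mature arms.
mir-52: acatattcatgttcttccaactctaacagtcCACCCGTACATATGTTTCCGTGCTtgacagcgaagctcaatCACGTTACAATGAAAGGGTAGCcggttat
The summit of mir-5549, at chrIII:6972019-6972119 on the minus strand, also lay in the hairpin, and the capitals mark the 5′ arm and the first base of the 3′ arm.
mir-5549: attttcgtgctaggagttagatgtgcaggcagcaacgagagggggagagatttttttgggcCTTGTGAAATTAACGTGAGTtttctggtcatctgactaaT
One of the pair of summits shared by mir-229, mir-64, mir-65 and mir-66, at chrIII:2172163-2172263 on the plus strand, is shown with the reverse complement of AGACGC in capitals.
mir-229: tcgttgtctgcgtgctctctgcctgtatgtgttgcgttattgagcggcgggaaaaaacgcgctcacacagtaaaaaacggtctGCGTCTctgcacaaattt

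In the conservative list 20 of the 261 miRNA genes were bound, or 7.66% (exact 95% binomial interval 4.74% to 11.6%), and 241 were not. The same rule called 3.88% of all nuclear genes, 5.38% of nuclear genes other than those of piRNAs (small RNAs that guide Piwi proteins in the germline), and 4.45% of protein-coding genes. The ratio of the miRNA share to that of all nuclear genes was 1.98, and 1.09 with the 1005 strongest peaks alone, where 7 miRNA genes were bound. The miRNA share lay below that of tRNA genes, at 41.3% (253 of 612), of snoRNA genes, at 24.9% (86 of 346), and of snRNA genes, at 12.4% (16 of 129). It lay above the 5.13% of genes classed only as noncoding RNA (398 of 7764) and the 0.794% of piRNA genes. These shares are descriptions of 1 list without a test. The interval covers at most counting error, and it treats genes as independent. Neighbouring genes can share a peak, so it can be too narrow even for that. The 20 bound genes fell into 17 loci, out of 227 when hairpins on 1 strand with gaps of at most 1000 bp were counted together.

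**Figure D1:**
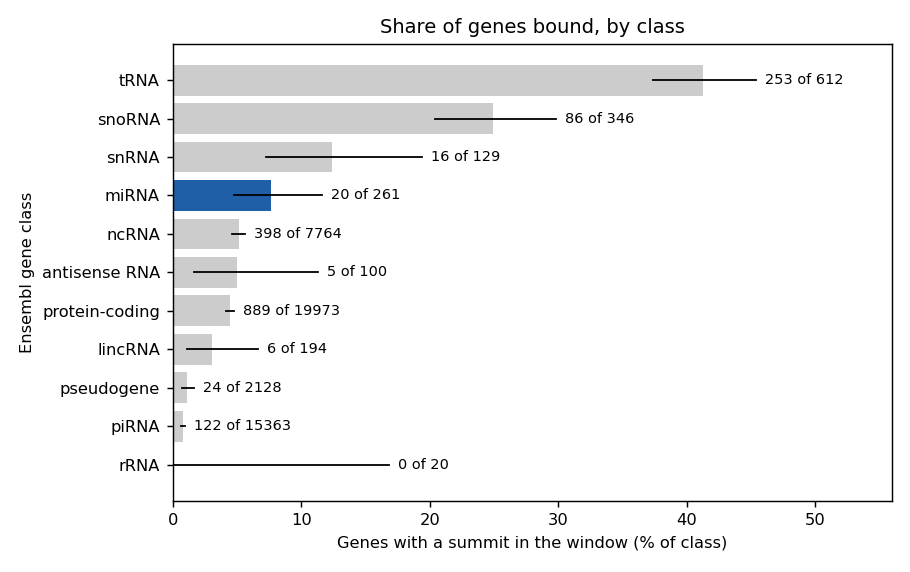
Share of genes with a summit of the conservative list in the window, in percent of each Ensembl class (bars), with exact 95% binomial intervals (lines) and the counts at the right. The miRNA bar, at 7.66%, stands between those of snRNA and noncoding RNA genes. The intervals treat genes as independent, although neighbouring genes can share a peak, so they can be too narrow.

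Ordered by the signal of their strongest peak, the bound genes were led by mir-80, mir-354, mir-52, mir-5549 and mir-51. The signal is the authors' strength of a peak, in units that can be compared within a list only. Across the 20 distinct peaks at miRNA genes the signal ran from 8.40 to 174 with a median of 74.5, and across all 2010 peaks from 2.00 to 778 with a median of 82.3. Of the 20 peaks, 8 lay above the median of the list and 12 did not, and 2, those of mir-80 and mir-354, were among the 201 strongest. The score, a scaled IDR whose highest value is 1000, was at that value in 11 of the 20 peaks and in 68.5% of the list. The lowest score among the 20 was 843, against a lowest value of 830 in the whole list. The width was 336 bp in 19 of the 20 and in 88.7% of the list.

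**Figure D2:**
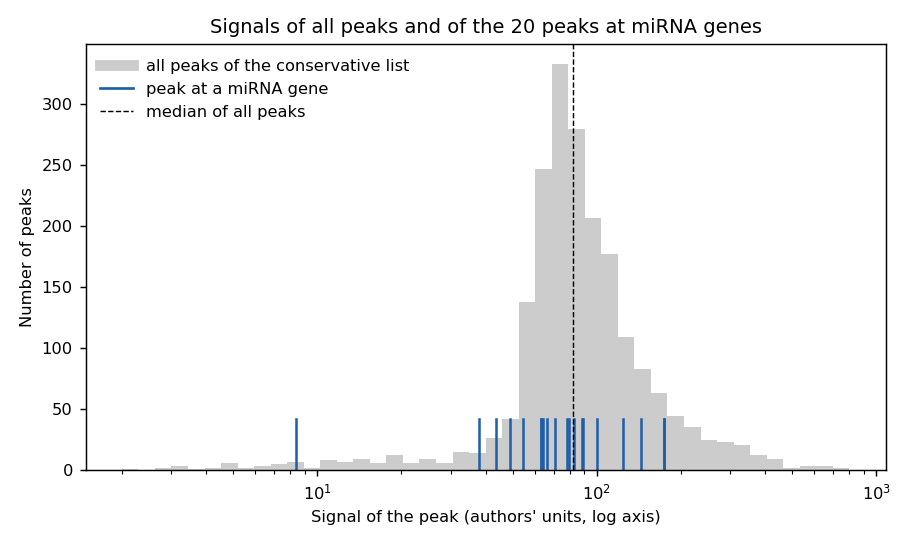
Number of peaks of the conservative list by signal (grey histogram, log axis in the authors' units), with the 20 peaks at miRNA genes as blue marks and the median of all peaks as a dashed line. The marks lie on both sides of the median of 82.3, from 8.40 to 174, and none reaches the upper end of the list at 778.

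The bound gene of the mir-58 group was mir-80, a relative of the fly growth regulator bantam. Its peak had an offset of −183 bp and a conservative signal of 174, rank 190. In the ranked lists its signal was 80.7 in replicate 1 and 92.4 in replicate 2, ranks 265 and 172. This peak was high in both libraries and passed the threshold in each, and its summit lay in the window of no other nuclear gene. The relatives with values in the ranked lists were lower. The highest signal in the window of mir-58a was 28.9 in replicate 1 and 25.0 in replicate 2, and that of mir-82 was 25.6 and 20.6.

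In the mir-51 family, which is needed for embryonic development and is expressed broadly, mir-51 and mir-52 were bound. The stronger mir-52 peak had an offset of −675 bp, a conservative signal of 144 and ranked signals of 80.2 in replicate 1 and 69.1 in replicate 2. A further mir-52 peak had its summit inside the hairpin at 35 bp, with a conservative signal of 89.4 and ranked signals of 36.8 and 61.8. The upstream peak passed the threshold in both libraries and the hairpin peak in replicate 2 only. For mir-51 the offset was −112 bp, the conservative signal 99.9 and the ranked signals 53.9 and 49.97, with the threshold passed in both libraries. Both mir-52 summits were also in windows of noncoding RNA genes, 5 for the upstream one and 4 for the other, and the upstream one in that of a piRNA gene. The mir-51 summit also lay in the window of the noncoding RNA gene F36H1.17, at −5 bp from its 5′ end. At mir-53 the ranked signals were 24.4 in replicate 1 and 36.1 in replicate 2, below those of both bound members in each library.

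The other members of this family, mir-54, mir-55 and mir-56, form a cluster on the X chromosome and were bound in some lists only. In replicate 2 a thresholded peak with a signal of 48.4 had offsets of −53, −223 and −360 bp from mir-54, mir-55 and mir-56. The ranked peak of replicate 1 in these windows lay farther upstream, at −215, −385 and −522 bp. It had a signal of 51.2 but was not in the thresholded list of replicate 1. The further list of the series held a peak of signal 106 in these windows. In the conservative list the nearest summit lay downstream, at 591, 421 and 284 bp, outside the windows. That summit, with a signal of 79.8, had an offset of −327 bp from mir-55b, annotated on the other strand from mir-55 and in an intron of F09A5.3. The ranked signals of the mir-55b peak were 50.4 in replicate 1 and 42.1 in replicate 2, and it passed the threshold of neither single library. With the list of replicate 2, 5 of the 6 family members were bound, and with that of replicate 1, or the conservative list, 2.

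The mir-64 group gave 4 of the bound genes, and these shared the same pair of peaks. From mir-229, the first hairpin of the cluster, the summits had offsets of −239 and −36 bp, and their conservative signals were 54.3 and 38.0. The same summits had offsets of −635 and −432 bp from mir-64, −789 and −586 bp from mir-65, and −895 and −692 bp from mir-66. Both overlapped 1 ranked peak with a signal of 34.1 in replicate 1 and 29.3 in replicate 2, and neither passed the threshold of a single library. In the conservative list these peaks ranked 1792 and 1887 of 2010, near its lower end, and the ranked peak was 2604 of 43564 in replicate 1 and 3635 of 43966 in replicate 2. The cluster lies in an intron of gcn-1 on the same strand, and its 4 hairpins, with gaps of at most 1000 bp, count as 1 locus. At mir-63, the member outside the cluster, the ranked signals were 16.5 and 22.5.

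Among the let-7 relatives, mir-48 was bound. Together with mir-84 and mir-241 it controls the passage from the second to the third larval stage. The peak had an offset of −635 bp, a conservative signal of 48.8 and ranked signals of 34.9 in replicate 1 and 30.0 in replicate 2, and it was in neither thresholded single-library list. The same summit lay 1139 bp downstream of the 5′ end of mir-241, and no other nuclear gene had it in its window. The window of let-7 itself, which drives the passage from larva to adult, was set from an annotated gene longer than the hairpin. It had no ranked peak in replicate 1 and one with a signal of 17.5 in replicate 2. The values for mir-84 were 14.7 and 14.7, and mir-241 had none in replicate 1 and 26.6 in replicate 2. Of the 7 genes listed in the let-7 family only mir-48 was bound in the conservative list, and none was in a thresholded single-library list.

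**Figure D3:**
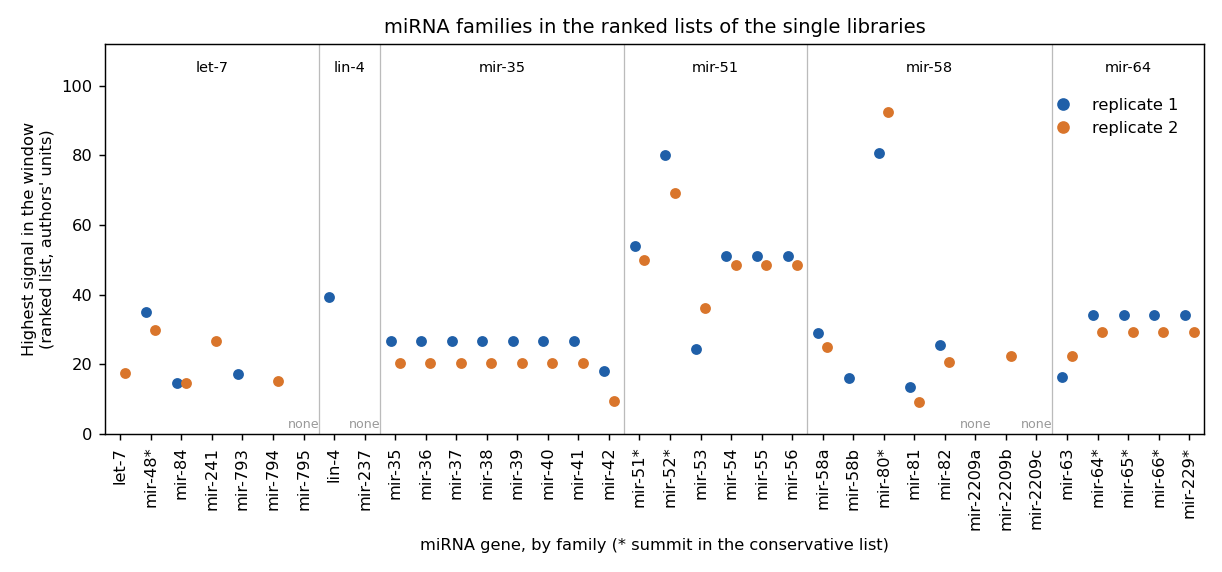
Highest signal of a ranked peak with its summit in the window of each gene, in replicate 1 (blue) and replicate 2 (orange), for 6 miRNA families; a gene without a point lacks such a peak in that library. The points of mir-80 and mir-52 stand above those of the other genes shown, and genes of a cluster, such as mir-54 to mir-56, share peaks and so share values.

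Of 27 other miRNAs listed for a known role 2 were bound, mir-71 and mir-238, beside 7.66% of all miRNA genes. The nearest mir-71 summit had an offset of −439 bp, a conservative signal of 62.9 and ranked signals of 46.0 in replicate 1 and 30.0 in replicate 2, and passed the threshold in replicate 1 only. It lay in an intron of ppfr-1 and in the window of the noncoding RNA gene F16A11.8. The mir-238 summits had offsets of −28 and −227 bp with conservative signals of 66.2 and 8.40. The latter was the lowest among the 20 peaks, although its score was 1000. Both mir-238 peaks overlapped the same ranked peaks, of 38.2 in replicate 1 and 38.9 in replicate 2, and were in neither thresholded list. No other nuclear gene had these summits in its window, and the mir-80 summit lay 1875 bp downstream of the mir-238 5′ end.

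Other miRNAs with well-known roles were not bound in the conservative list, and some of them had a ranked signal within the range of the bound genes in a single library. The founding miRNA lin-4 had a ranked signal of 39.4 in replicate 1, where the median of the bound peaks was 39.0, and no ranked peak in its window in replicate 2. For mir-34, which takes part in stress responses, the values were 26.8 and 31.3. No ranked peak of either library was in the windows of lsy-6, which sets left-right differences between taste neurons, mir-1 of muscle, mir-124 of sensory neurons, mir-228 of glia or mir-86. The mir-35 family of 8, essential in embryos, had no bound member, and mir-35 to mir-41 shared ranked signals of 26.6 in replicate 1 and 20.4 in replicate 2. A conservative peak of signal 70.4 did lie at this cluster, downstream of the window, at offsets from 240 bp for mir-41 to 940 bp for mir-35. None of the 4 genes of the mir-44 family, the 4 of the mir-2 family or the 2 of the lin-4 family was bound.

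The remaining bound genes are less studied. For mir-354 the offset was −839 bp, the conservative signal 174, and the ranked signals 94.9 in replicate 1 and 79.1 in replicate 2, in both thresholded lists. This hairpin lies in an exon of rps-20, a ribosomal protein gene, and its summit was also in the windows of rps-20, at −227 bp, and of ekl-4, at −170 bp. For mir-5549 the summit was inside the hairpin, at 16 bp, with a conservative signal of 124 and ranked signals of 66.4 and 70.1, in both thresholded lists. It was also in the windows of eef-1A.1, at −357 bp, a translation elongation factor gene, and of rfc-4, at −184 bp, a clamp loader subunit gene of DNA replication. These were the second and the fourth of the bound miRNA genes by signal, and neither summit can be assigned to 1 gene. At mir-2214 the offset was −79 bp, the conservative signal 88.4 and the ranked signals 59.4 and 39.1, passing the threshold in replicate 1 only. That summit lay in an intron of B0361.11 and in the window of the noncoding RNA gene B0361.13, at −105 bp.

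The last bound genes, mir-4932, mir-8186-2, mir-4929, mir-47, mir-77 and mir-4936, had conservative signals from 43.5 to 82.5 and were in neither thresholded single-library list. The mir-4932 summit, 68 bp into the hairpin, had a conservative signal of 82.5 and ranked signals of 30.2 in replicate 1 and 35.2 in replicate 2. It was shared with klp-16, a kinesin gene, at −77 bp and smn-1, the survival motor neuron gene, at −139 bp. At mir-8186-2 the signals were 78.2, 37.5 and 47.3 in the conservative, replicate 1 and replicate 2 lists, and the summit was shared with gmeb-1. At mir-77 they were 63.3, 36.8 and 34.2, shared with srh-70, at −107 bp, and with the snoRNA gene T21B4.20, at −120 bp. At mir-4936 they were 43.5, 39.6 and 29.2, shared with nduf-9, a gene of mitochondrial complex I. Both mir-4929, at 70.8, 28.8 and 36.9, and mir-47, at 64.1, 38.4 and 27.9, had a summit in the window of no other nuclear gene. Across the 6 genes the ranked signals ran from 27.9 to 47.3.

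**Figure D4:**
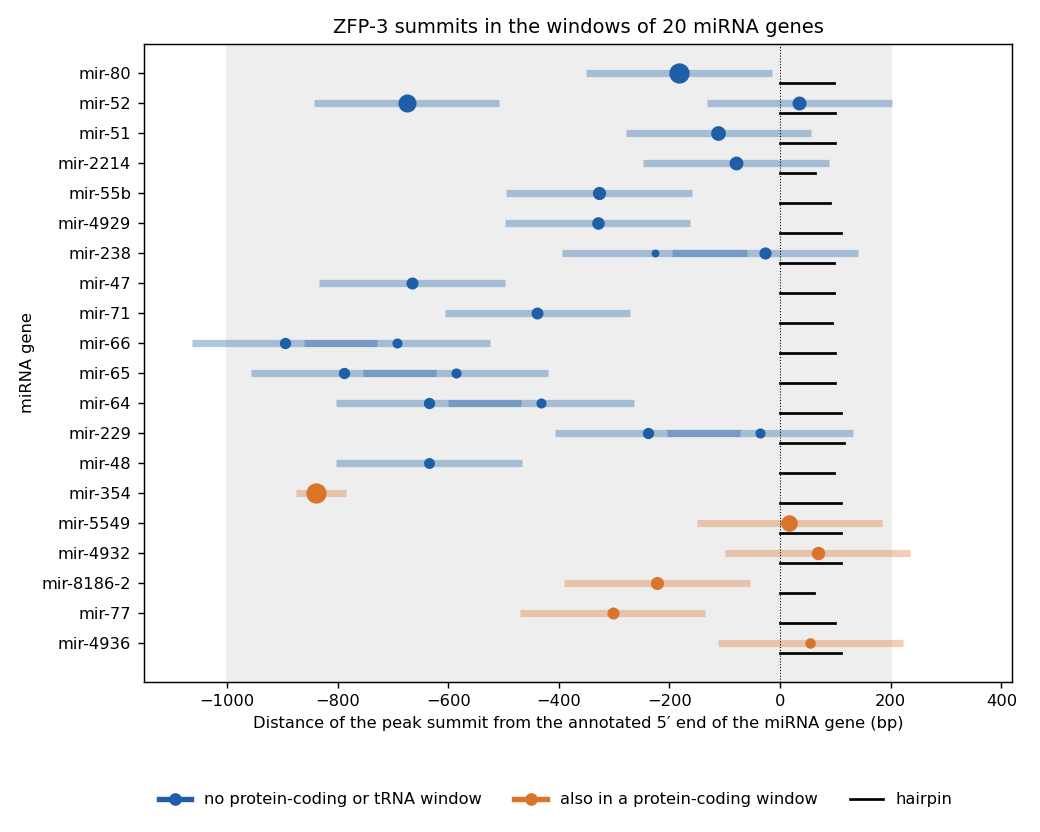
Position of each conservative summit (circle, larger for a higher signal) and peak (pale bar) relative to the annotated 5′ end of 20 bound miRNA genes, with the hairpin as a black line and the window shaded. The 14 genes in blue had no summit shared with a protein-coding or tRNA window, the 6 in orange did, and 4 genes had a summit within the hairpin.

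The nearest summits had a median offset of −262 bp, with quartiles of −476 and −34.0 bp and a range from −839 to 68 bp. For the 889 bound protein-coding genes the median was −252 bp. Of the summits, 4 lay inside the hairpins, those of mir-4932, mir-4936, mir-5549 and mir-52, and the other bound genes had theirs upstream. The windows of 6 bound genes held a summit that was also in the window of a protein-coding gene, and no bound miRNA gene shared one with a tRNA gene. The other 14 bound genes formed 11 loci. Counting every other nuclear gene, 6 bound miRNA genes had summits in the window of no other gene, namely mir-80, mir-238, mir-48, mir-47, mir-55b and mir-4929. Of these summits, that of mir-55b lay in an intron of F09A5.3 and that of mir-4929 in an intron of E01G4.3, both protein-coding genes. At the edges of the window, the nearest summit farther upstream of an unbound gene had an offset of −1295 bp at mir-2221, with a signal of 109, and the nearest downstream one was that of mir-41.

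Position in the genome differed among the bound genes. On chromosome III 9 of 27 miRNA genes were bound, or 33.3%, in 6 loci, against 4.70% (11 of 234) on the other chromosomes together. The share of protein-coding genes bound was also highest on III, at 7.20%, and ran from 2.92% to 5.63% on the other chromosomes. On the X chromosome, which holds 74 of the miRNA genes, 2 were bound. Of 152 miRNA genes outside protein-coding genes 11 were bound, of 68 in an intron on the same strand 8, in 5 loci, and of 30 in an intron on the opposite strand none. These are counts without a test, and the genes of the mir-229 cluster make up 4 of the 9 on chromosome III and 4 of the 8 in same-strand introns.

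The single libraries called fewer of these genes. The list of replicate 1 had 7 bound miRNA genes, with a background of 1.99% of all nuclear genes, and the list of replicate 2 had 9, with a background of 2.08%. All 7 of replicate 1 and 5 of the 9 of replicate 2 were bound in the conservative list, and the other 4 of replicate 2 were mir-54, mir-55, mir-56 and mir-243. In the further list of the series 15 miRNA genes were bound, with a background of 3.03%, of which 10 were also bound in the conservative list. These backgrounds include the piRNA genes. In the lists of replicate 1, replicate 2 and the series, 2.49%, 2.30% and 3.44% of protein-coding genes were bound. The miRNA shares were 2.68%, 3.45% and 5.75%. Without the threshold, ranked peaks had a summit in the windows of 131 miRNA genes in replicate 1, or 50.2%, and 150 in replicate 2, or 57.5%. The backgrounds were 34.3% and 36.0% of all nuclear genes, piRNA genes included, and were not computed without them. Of the members, 107 had such a peak in both libraries, 67 in one and 87 in neither. mir-243 had a thresholded signal of 54.7 in replicate 2 at an offset of −758 bp, and mir-8187 was bound in the further list of the series alone, with 80.2.

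For 4 of the 20 bound genes, mir-80, mir-354, mir-5549 and mir-51, the nearest conservative peak overlapped a thresholded peak of both libraries by at least 1 bp. The same held for 33.3% of all bound nuclear genes. It overlapped one of replicate 1 only for mir-71 and mir-2214, of replicate 2 only for mir-52, and of neither for 13. By peaks, 5 of the 20 overlapped thresholded peaks of both libraries and 12 of neither, against 27.0% and 45.7% of all 2010. All 20 overlapped a ranked peak in each library, in 18 distinct pairs. The conservative list used both libraries and the ranked lists have no limit, so this overlap is no separate support. The signals of these pairs ran from 28.8 to 94.9 in replicate 1 and from 27.9 to 92.4 in replicate 2, each with a median of 39.0. Across the 18 pairs Spearman's rho was 0.608 and Pearson's r 0.826, as a description of peaks that had already passed the IDR limit.

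**Figure D5:**
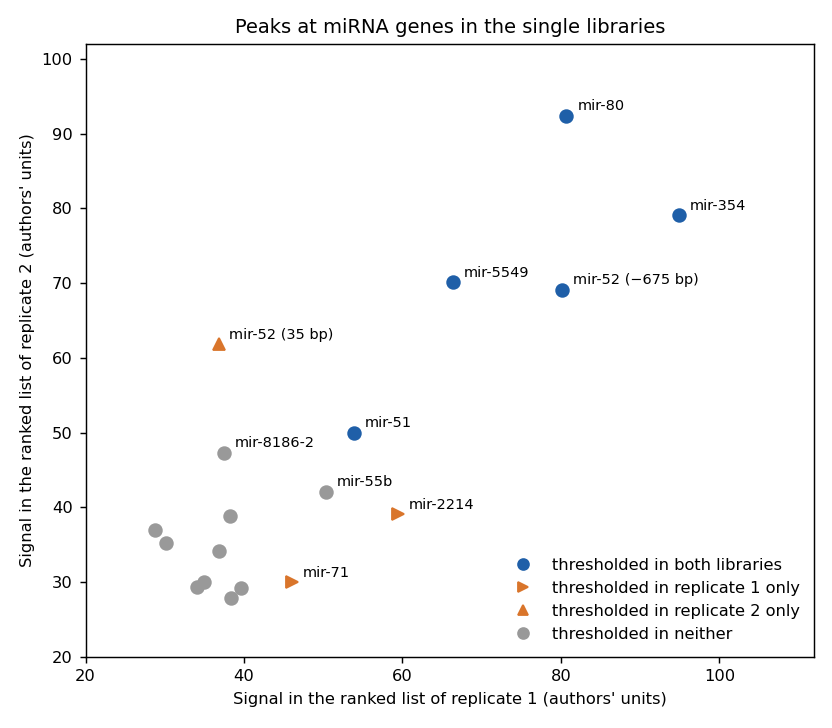
Signal of the ranked peak overlapping each conservative peak at a miRNA gene in replicate 1 (horizontal) and replicate 2 (vertical), in the authors' units of each list. The 5 blue points, in both thresholded lists, lie at 49.97 or above in each library, and most grey points, in neither, lie below 40 in both.

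The summit windows were searched on both strands for 4 motifs. AGACGC, the leading word of earlier work on these same peaks, was in 1 of the 20 windows of 101 bases, that of the mir-229 cluster, and in 9.25% of all 2010. CTCCGCCC, known from upstream sequences of nematode miRNA genes, was in 1 of the 20, that of mir-80, and in 0.995% of all. GAGAGA was in 3 of the 20 and in 13.8% of all, and in windows of 201 bases in 11 of the 20 and in 24.0% of all. GTTCGANNC, the B box of tRNA genes, was in none of the 20 and in 6.07% of all, and in windows of 201 bases in 2 of the 20, those of mir-4936 and mir-51, and in 9.55% of all. AGACGC and CTCCGCCC were each in 1 of the 20 windows of 201 bases, and in 13.8% and 1.44% of all. In the 1000 bases upstream of the hairpin, CTCCGCCC was found for 3 of the 20 bound genes, mir-80, mir-52 and mir-48, and for 35 of all 261, or 13.4%. AGACGC was found there for 9 of the 20, which include the 4 genes of the mir-229 cluster, and for 23.0% of all miRNA genes. For GAGAGA the values were 14 of the 20 and 54.8%, and for GTTCGANNC 1 of the 20 and 5.75%. A match is a description of the letters, not a binding site. The GC content of the 101 bases had a median of 47.5% at the miRNA peaks, with a range from 32.7% to 63.4%, and of 44.6% over the list.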

How the data were processed

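Peak lists on the ce11 build were used, per the labels, from 2 biological replicates whose numbers the labels give. Per the notes deposited with the files, single-library lists were made from that library's alignments and series lists from both. The signal is the authors' deposited peak strength, with no scale given. The score is the authors' deposited scaled IDR, with 830 or more (a global IDR of 0.01 or less) in every conservative peak. No aligner or caller was given in the sources used here.

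Genes came from Ensembl release 115, and mature miRNAs from RefSeq annotation and genome, both WBcel235. Summits were assigned to windows in Python 3.11.15 (NumPy 2.4.6, SciPy 1.17.1), an assignment tested on simulated peaks. Intervals are exact Clopper-Pearson. Named genes were all bound miRNA genes, those bound in other lists, those nearest the window edges, and listed families and pathway genes. The members and lists were chosen with earlier results of these data known, and no set test was made. mir-8187 and the relatives quoted for comparison were chosen after their values were seen. Alternatives were other lists, the 1005 strongest peaks, other windows, overlaps, loci and backgrounds. Not every mature sequence of the bound genes is reported here. The ranked series list served only to look up scores of unbound genes.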

Additional observations from a re-analysis of the deposited data

How the results depend on the processing

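The values depended most on the list. With 1 library's list alone, 7 to 9 miRNA genes were bound in place of 20, and 5 to 7 in place of 14 had no summit shared with protein-coding or tRNA genes. The median offset was then −181 to −171 bp in place of −262. With the 1005 strongest peaks the counts were 7 and 4, the ratio to all nuclear genes was 1.09 in place of 1.98, and the median offset was −79 bp. These lists hold fewer peaks by construction. The offset was −223 bp with the further list of the series, −112 bp with a window of 500 bp upstream to 100 bp downstream, −432 bp with 2000 bp upstream, and −330 bp with the hairpin left out, as the window bounds it. Counting windows of every other nuclear gene, 6 in place of 14 had summits in no other gene's window. Without a threshold 20 in place of 4 had a peak in both libraries, which is no separate support since the conservative list used both. The other 24 values stayed within the limits set, a factor of 1.5 for counts and 1.22 to 2.99 for the ratio. These limits are wide, and the ratio ran from 1.35 to 2.27 within them. No paired analysis was possible because there was 1 group. Depth and the absence of an analysed control limit what an unbound gene means: its binding was not detected in these lists. For a bound gene, whether the peak would be absent in a control was not tested.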

Other observations

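Genes of the miRNA pathway itself were looked up in the same lists. Of 10 genes listed for miRNA processing and related steps, such as decay, none was bound in the conservative list, beside 4.45% of all protein-coding genes. The gene drsh-1, which encodes Drosha, had ranked signals of 15.9 in replicate 1 and 15.6 in replicate 2, and dcr-1, which encodes Dicer, 25.3 and 15.0. Of 24 Argonaute and effector genes 3 were bound. The strongest was nhl-2, a cofactor of the silencing complex, with an offset of −828 bp, a conservative signal of 266 and ranked signals of 156 and 113. Its summit lay in an exon of the noncoding RNA gene F26F4.14 and also in the window of the protein-coding gene tag-340, so it cannot be assigned to 1 gene. For vig-1, whose protein associates with that complex, the values were −407 bp, 258, 143 and 125. The vig-1 summit was also in the window of the piRNA gene 21ur-13751. For ain-1, a GW182-type partner of Argonaute, the peaks had signals of 85.8 at −903 bp and 25.1 at −672 bp. The Argonaute gene alg-1 had no ranked peak in its window in either library. Of 26 listed target and timing genes 3 were bound, namely nhl-2, the timing gene lin-46 with a signal of 151 at −862 bp, and sem-5, a signalling adaptor gene, with 74.9 at −624 bp. The lin-46 summit was also in the windows of the protein-coding genes R186.3 and R186.8. That of sem-5 was also in the window of the piRNA gene 21ur-13424, and the sem-5 peak was in neither thresholded single-library list. The nhl-2 and vig-1 signals were above those of all 20 peaks at miRNA genes, which reached 174.

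Several miRNA genes without a conservative summit in the window had a peak there in the ranked list of the series, scored below the conservative list. The highest scores of members unbound in the conservative list were 768 at mir-236, 763 at mir-5595 and 755 at mir-243. At mir-54, mir-55 and mir-56 the score was 749, and every conservative peak had 830 or more. Of these genes, mir-243, mir-54, mir-55 and mir-56 were bound in the thresholded list of replicate 2 and in the further list of the series.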
